A study of Homo sapiens with 44 samples.

Results

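The RNA levels of 10 genes of the regulated secretory pathway were followed in A549 cells and in tumours grown from them. A549 is a human lung adenocarcinoma line. The genes are the granins CHGA, CHGB, SCG2, SCG3, VGF and SCG5, the prohormone-processing enzymes PCSK1, PCSK2 and CPE, and the vesicle membrane protein gene SYP. They are listed by function and were selected on their CPM across the 12 sample groups, with these values already known, and all 10 were found among the 58721 genes of each count table. Their levels and differences between groups are therefore descriptions, and p-values are printed only for the other genes of the pathway. The lists of those other genes were also chosen with earlier results of these data known, which their p-values do not allow for. Where the text counts or names those of the 10 that the fit over all genes called, the calls come from the values the selection used. Nothing is read from them, nor from calls of the 10 that were lost or gained under alternatives.

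The study compared the parental line, called WT, with isogenic lines called het1, het2 and homo. These lines carry p300 truncated at its TAZ2 domain, a region of this histone acetyltransferase that binds transcription factors. Cultured het1, het2, homo and WT cells gave 3 libraries each, and xenograft tumours of the same lines collected at day 30 gave 4 libraries each. Tumours of het1 and WT were also treated for 4 weeks with SAHA, an inhibitor of histone deacetylases (vorinostat), or with DMSO, the vehicle, with 4 libraries in each of these groups. Only 1 line was homo, and the effect of the truncation cannot be told apart from other features of a line in its comparison with WT. The sources used here give neither the dose nor the host strain, and do not say if replicate libraries stem from separate animals or culture dishes. The p-values therefore measure only the spread among libraries, which may be technical.

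Granins are acidic proteins stored with peptide hormones in dense-core granules of endocrine and neuronal cells, where they help the granules form and are themselves cut into peptides. The prohormone convertases encoded by PCSK1 and PCSK2 cleave precursors at paired basic residues, carboxypeptidase E (CPE) trims the exposed basic residues, and the enzyme encoded by PAM can then amidate the end of the peptide. In the lung these genes mark neuroendocrine cells and neuroendocrine tumours, whereas A549 is used as a model of adenocarcinoma.

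The sources hold promoter sequence for 8 of the 10 genes (RefSeq, GRCh38.p14; 10 windows from 250 bases before to 50 bases after a gene start). CHGB and SCG2 are not among them. The cyclic AMP response element, TGACGTCA, a palindrome and so the same on both strands, was found in 3 of the genes, CHGA, VGF and PCSK1. It was found in 1.85% of all 35116 promoter windows of the table. Those 3 promoters are shown because the levels of the 3 genes were ordered differently over the lines. Each shows the 120 bases before the RefSeq start of its window, 5′ to 3′ on the gene's own strand, with the element in capitals. RefSeq starts differ from the gene bounds given below, which are from GENCODE 29. The CHGA and VGF stretches cross those bounds, and the PCSK1 stretch lies inside them. The stretches lie at chr14:92923030-92923149 (CHGA, plus strand), chr7:101165570-101165689 (VGF, minus strand) and chr5:96433249-96433368 (PCSK1, minus strand).
CHGA: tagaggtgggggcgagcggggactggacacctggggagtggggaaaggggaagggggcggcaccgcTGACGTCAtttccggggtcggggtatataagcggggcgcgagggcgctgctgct
VGF: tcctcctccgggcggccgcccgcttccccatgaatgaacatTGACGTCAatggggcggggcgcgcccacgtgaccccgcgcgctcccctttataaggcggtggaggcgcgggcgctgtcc
PCSK1: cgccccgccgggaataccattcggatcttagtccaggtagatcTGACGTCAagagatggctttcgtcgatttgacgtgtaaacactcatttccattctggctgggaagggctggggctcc

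The 5-base core of that element, TGACG, searched on both strands, occurred in 24.6% of all windows. It was found in windows of CHGA, VGF, PCSK1, SCG5, SCG3, PCSK2 and CPE. PCSK1 held 2 copies on its own strand, and the later one is in lower case above. CPE also held 2 copies on its own strand, which are in capitals in the 140 bases at chr4:165378758-165378897 (plus strand). The CPE stretch lies inside the gene bounds given below. SCG3 is shown for a different motif, RE1, the element bound by the repressor REST. The left part of RE1, TTCAGCACC, occurred in 0.376% of all windows and the right part, GGACAGC, in 6.03%, on either strand. SCG3 held both in order within 24 bases at chr15:51681511-51681534 (plus strand), with both parts in capitals. These bases lie just after the RefSeq start and inside the gene bounds given below. A match is a stretch of letters and says nothing of binding in these cells.
CPE: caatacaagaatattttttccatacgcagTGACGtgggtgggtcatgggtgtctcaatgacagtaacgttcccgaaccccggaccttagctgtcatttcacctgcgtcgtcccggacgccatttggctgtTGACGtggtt
SCG3: TTCAGCACCcacagggcGGACAGC

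Total counts ran from 61168373 to 99593214 per library. Levels are given as CPM, in which each library is brought to 1000000 counts with TMM factors applied, and each of the 3 tables, for cells, day 30 tumours and treated tumours, was scaled on its own, so levels set across tables carry that limit. Of the 10 genes, 9 passed the filter on low counts in every table. PCSK2, which passed in none, is described by its counts. EP300, the gene of p300, was detected in every group, with means of 185, 153, 190 and 115 CPM in het1, het2, homo and WT cells. Whole-gene counts do not report the truncation itself. Markers of the A549 epithelium, 10 keratin, adhesion and lung genes, summed to 2653 to 2777, 2034 to 2103 and 839 to 856 CPM in het1, het2 and homo cells, against 6625 to 6979 CPM in WT cells. In bulk libraries, fewer cells of a type and less RNA per cell cannot be told apart.

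SCG2 (ENSG00000171951, chromosome 2, 223596940 to 223602503 of GRCh38), which encodes secretogranin II, the precursor of the peptide secretoneurin, differed most from WT in culture among the 10 genes. It was at 200, 213 and 208 CPM in het1 cells, at 308, 303 and 302 CPM in het2 cells and at 49.2, 47.4 and 51.4 CPM in homo cells, against 1.06, 1.32 and 1.29 CPM in WT cells. Both heterozygous lines thus stood above homo, and the libraries of the 4 lines did not overlap. The fitted differences from WT were 7.39 ± 0.05 log2 units (SE) for het1, 7.94 ± 0.05 for het2 and 5.32 ± 0.06 for homo. In tumours at day 30 it was at 52.5, 51.7, 45.3 and 61.2 CPM in het1, 40.9, 37.2, 29.1 and 28.1 CPM in het2 and 43.8, 19.1, 30.8 and 23.0 CPM in homo, against 1.16, 0.695, 1.26 and 0.811 CPM in WT. Every library of the 3 lines again stood above every WT library, but the libraries of het2 and homo overlapped.

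CHGB (ENSG00000089199, chromosome 20, 5911430 to 5925361), which encodes chromogranin B, was higher than WT in the lines in culture and reached far higher levels in tumours. It was at 67.9, 65.5 and 74.6 CPM in het1 cells, 50.8, 48.8 and 50.9 CPM in het2 cells and 44.5, 41.8 and 41.2 CPM in homo cells, against 14.4, 13.0 and 13.9 CPM in WT cells. These correspond to 5.04-fold, 3.65-fold and 3.09-fold the WT level. Day 30 tumours held 5138, 5011, 4046 and 3994 CPM in het1, 1608, 2047, 1251 and 1951 CPM in het2 and 2473, 2446, 2058 and 2121 CPM in homo, against 166, 100.03, 123 and 114 CPM in WT. All 12 tumours of the truncated lines lay above the 4 WT tumours, and het1 lay above both other lines. The differences from WT were 5.18 ± 0.20 log2 units for het1, 3.77 ± 0.18 for het2 and 4.18 ± 0.19 for homo.

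CHGA (ENSG00000100604, chromosome 14, 92923080 to 92935293), which encodes chromogranin A, the granin measured most often as a serum marker of neuroendocrine tumours, stayed at a few CPM. It was at 1.11, 1.54 and 1.25 CPM in het1 cells, 4.63, 4.40 and 4.54 CPM in het2 cells and 5.12, 5.68 and 4.68 CPM in homo cells, against 0.725, 0.606 and 0.406 CPM in WT cells. In contrast to CHGB, homo rather than het1 had its highest level. Mean levels in day 30 tumours were 1.07 ± 0.18, 1.26 ± 0.27 and 3.34 ± 0.32 CPM in het1, het2 and homo, against 0.489 ± 0.195 CPM in WT (SD, n = 4 each). The libraries of het1 and het2 overlapped, and both stood above WT and below homo.

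SCG3 (ENSG00000104112, chromosome 15, 51681353 to 51721031) encodes secretogranin III, which binds chromogranin A and the granule membrane. It was at 0.648, 0.380 and 0.728 CPM in het1 cells, at 1.27, 1.21 and 1.03 CPM in het2 cells and at 2.82, 2.92 and 2.56 CPM in homo cells, against 0.0966, 0.0413 and 0.162 CPM in WT cells. The WT values lie near the detection limit, since 3 counts correspond to between 0.030 and 0.049 CPM in any library. The order homo, het2, het1, WT held without overlap. In day 30 tumours the means were 1.18 ± 0.30, 0.245 ± 0.121 and 1.39 ± 0.22 CPM in het1, het2 and homo, against 0.0373 ± 0.0231 CPM in WT, so het2 was the lowest of the 3 lines there.

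VGF and SCG5 did not share this pattern. VGF (ENSG00000128564, chromosome 7, 101162509 to 101165593), a granin-like precursor of several peptides that nerve growth factor induces in neurons, was at 4.77, 3.74 and 4.99 CPM in het1 cells, 0.645, 0.607 and 0.941 CPM in het2 cells and 4.07, 4.70 and 3.68 CPM in homo cells, against 1.47, 1.27 and 0.801 CPM in WT cells. It was thus higher than WT in het1 and homo but overlapped WT in het2. Among tumours at day 30, het1 and homo overlapped WT, with 0.900 ± 0.312 and 1.57 ± 1.00 CPM against 0.964 ± 0.372 CPM, and het2 was lower at 0.318 ± 0.165 CPM.

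SCG5 (ENSG00000166922, chromosome 15, 32641676 to 32697098) encodes 7B2, the chaperone that the PCSK2 convertase needs for its maturation. It was at 0.573, 0.503 and 0.448 CPM in het1 cells, 0.155, 0.181 and 0.246 CPM in het2 cells and 0.232, 0.292 and 0.218 CPM in homo cells, against 0.628, 1.05 and 0.777 CPM in WT cells. All 9 libraries of the lines lay below the 3 WT libraries. In day 30 tumours het1 was instead above WT, at 1.78 ± 0.21 against 0.996 ± 0.201 CPM. There het2 overlapped WT at 1.24 ± 0.14 CPM, and homo was below at 0.573 ± 0.101 CPM. The treated het1 tumours overlapped WT under either agent. They were at 1.87 ± 0.13 against 1.88 ± 0.38 CPM under DMSO, and at 1.76 ± 0.18 against 1.88 ± 0.80 CPM under SAHA.

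**Figure D1:**
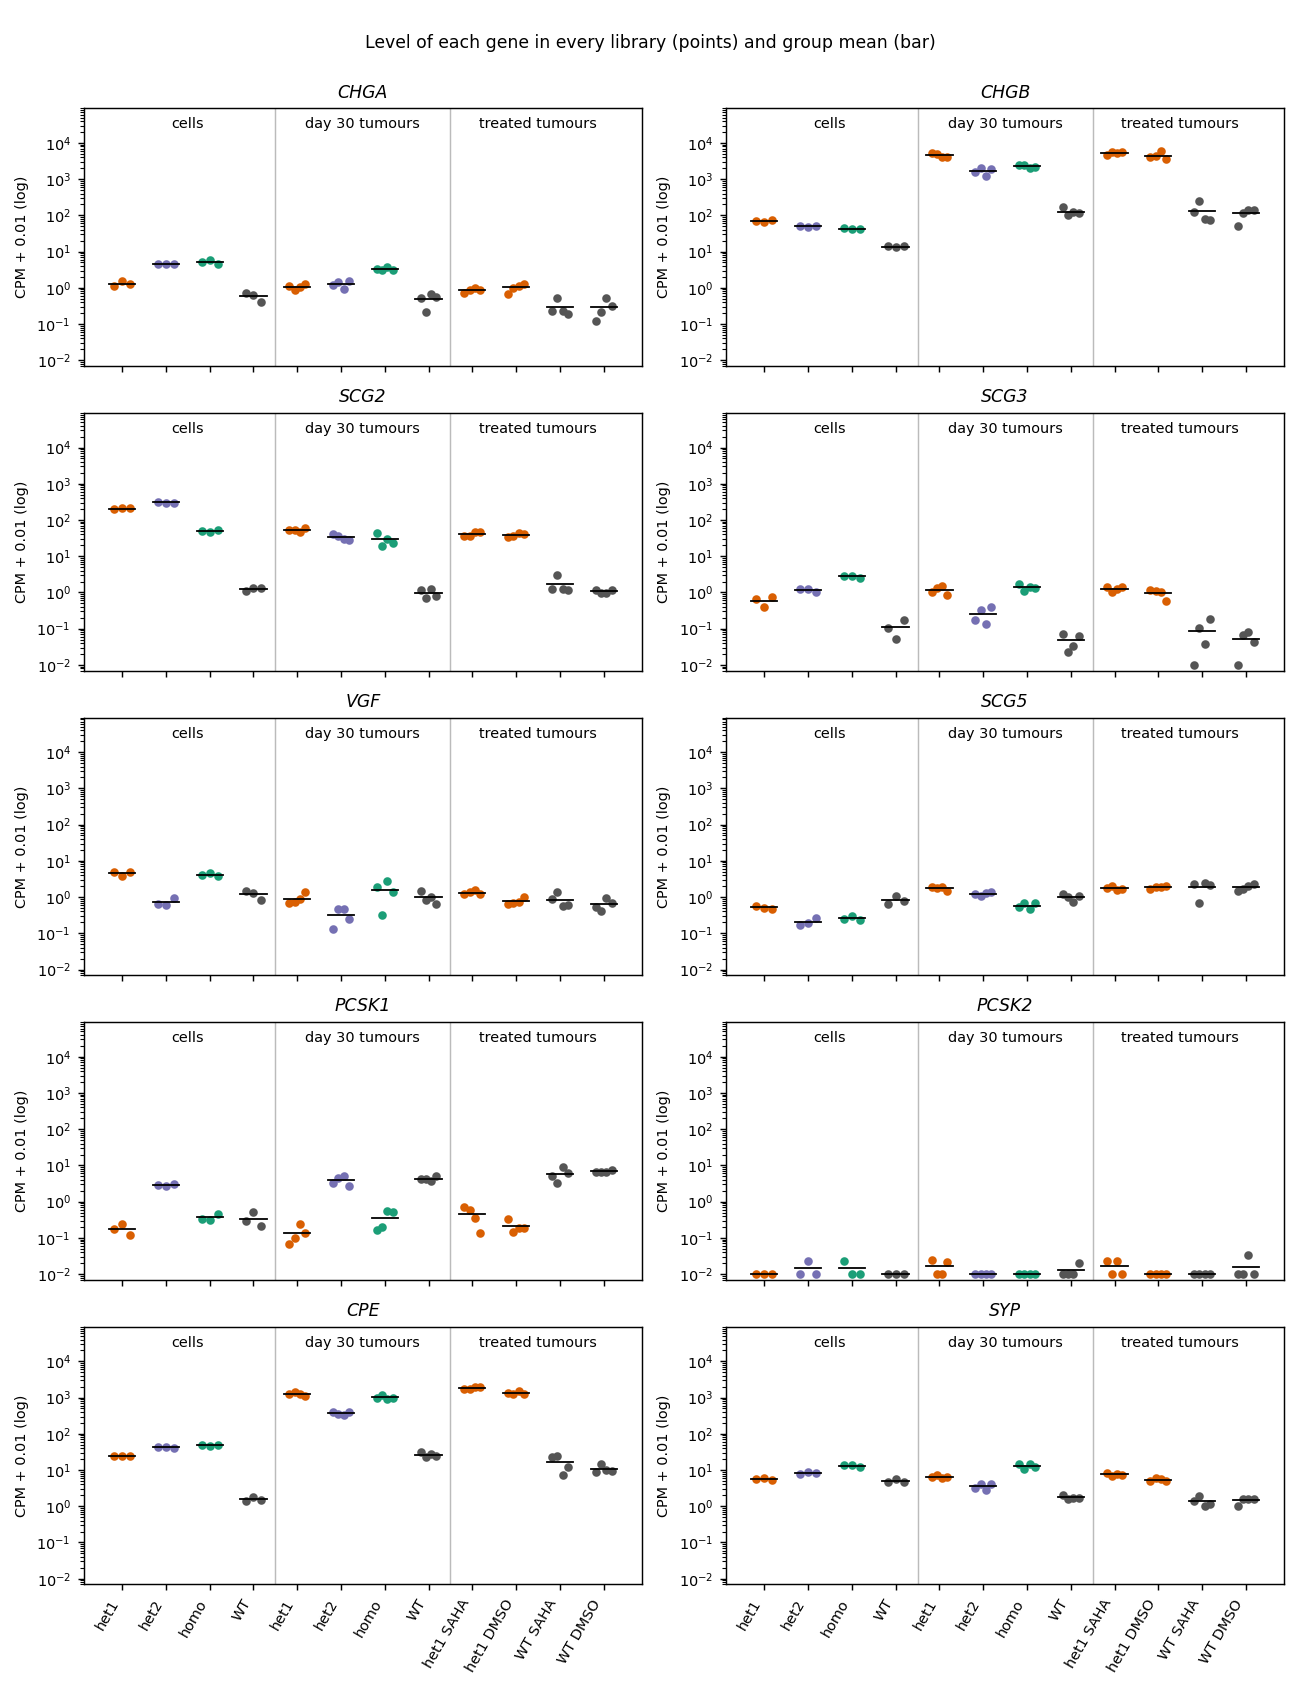
Level of each of the 10 genes in every library on a log axis (CPM + 0.01), by group, with cultured cells on the left, day 30 tumours in the middle and treated tumours on the right. Points are libraries and bars are group means; CHGB and CPE reach 4547 and 1252 CPM in het1 tumours at day 30, while PCSK2 stays at 0 to 2 counts.

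CPE (ENSG00000109472, chromosome 4, 165361194 to 165498320) encodes carboxypeptidase E and had the highest level of the 3 processing enzymes among the 10 genes. It was at 24.9, 25.1 and 24.3 CPM in het1 cells, 42.4, 44.2 and 41.3 CPM in het2 cells and 48.5, 47.3 and 50.4 CPM in homo cells, against 1.35, 1.78 and 1.47 CPM in WT cells. At day 30 its level in tumours was 1244, 1404, 1249 and 1112 CPM in het1, 410, 352, 326 and 408 CPM in het2 and 1003, 1158, 902 and 969 CPM in homo, against 31.7, 22.3, 27.7 and 24.0 CPM in WT. The lines were separated from WT in both settings, but het1 was the lowest of the 3 lines in culture and had the highest mean in tumours. The differences from WT in tumours were 5.57 ± 0.13, 3.82 ± 0.12 and 5.25 ± 0.13 log2 units for het1, het2 and homo.

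PCSK1 (ENSG00000175426, chromosome 5, 96390415 to 96434143), the convertase PC1/3, ran against CHGA, CHGB, SCG2 and SCG3 in het1 and homo tumours at day 30. It was at 0.0583, 0.0921, 0.232 and 0.130 CPM in het1 tumours, at 3.20, 4.39, 5.05 and 2.70 CPM in het2 tumours and at 0.158, 0.196, 0.537 and 0.510 CPM in homo tumours, against 4.08, 4.12, 3.77 and 5.23 CPM in WT tumours. The het1 and homo tumours lay below every WT tumour, whereas het2 overlapped WT. The differences from WT were -5.03 ± 0.37, -0.16 ± 0.26 and -3.58 ± 0.32 log2 units for het1, het2 and homo. The het1 tumours held 4, 7, 18 and 11 counts of PCSK1, where 3 counts are taken as the floor. In culture only het2 had over 1 CPM, with 2.95, 2.66 and 3.14 CPM, while het1 and homo cells had 0.168 ± 0.060 and 0.357 ± 0.084 CPM, against 0.326 ± 0.150 CPM in WT cells (SD, n = 3 each). The libraries of het1 and of homo overlapped those of WT.

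PCSK2 (ENSG00000125851, chromosome 20, 17226107 to 17484578), the convertase PC2, was not detectable above 2 counts in any library, and each of the 12 groups held 0 to 2 counts in all. With 3 counts taken as the floor, its level was below 0.049 CPM in every library, and no fold is given.

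SYP (ENSG00000102003, chromosome X, 49187804 to 49200259) encodes synaptophysin, a membrane protein of small vesicles and a diagnostic marker of neuroendocrine tumours. It shares exon sequence with an antisense gene, SYP-AS1, and the strand setting of the counting is not given, so reads of the pair cannot be told apart. It was at 5.61, 6.11 and 5.22 CPM in het1 cells, 7.70, 8.60 and 8.13 CPM in het2 cells and 13.6, 13.7 and 12.0 CPM in homo cells, against 4.56, 5.58 and 4.70 CPM in WT cells. Here het1 overlapped WT. In day 30 tumours it was at 6.62, 7.50, 5.85 and 6.48 CPM in het1, 3.20, 4.17, 2.88 and 4.17 CPM in het2 and 14.4, 10.8, 14.4 and 11.8 CPM in homo, against 2.02, 1.61, 1.69 and 1.65 CPM in WT. The order homo, het1, het2, WT held without overlap.

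Of the 9 genes in the fit, 6 were called higher than WT and 2 lower in het1 cells at an edgeR adjusted p under 0.05, where 62.8% of all tested genes were called (32.0% higher and 30.8% lower). In het2 cells 7 were called higher and 2 lower, beside 68.5% of all genes (35.1% higher and 33.3% lower). In homo cells 7 were called higher and 1 lower, beside 70.5% (35.4% higher and 35.1% lower). Among day 30 tumours, 7 were called higher and 1 lower in het1, beside 51.5% of all genes (26.8% higher and 24.8% lower). In het2 tumours 6 were called higher and 1 lower, beside 49.2% (24.4% higher and 24.8% lower), and in homo tumours 6 higher and 2 lower, beside 54.8% (27.1% higher and 27.7% lower). Since the genes were chosen with these values known, and PCSK2 was too low to test, the counts are given as description only. The median difference over the 9 genes was 1.96, 3.00 and 1.85 log2 units in het1, het2 and homo cells, and 1.92, 1.35 and 2.88 in the tumours, where the median over all tested genes lay between -0.01 and 0.03.

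**Figure D2:**
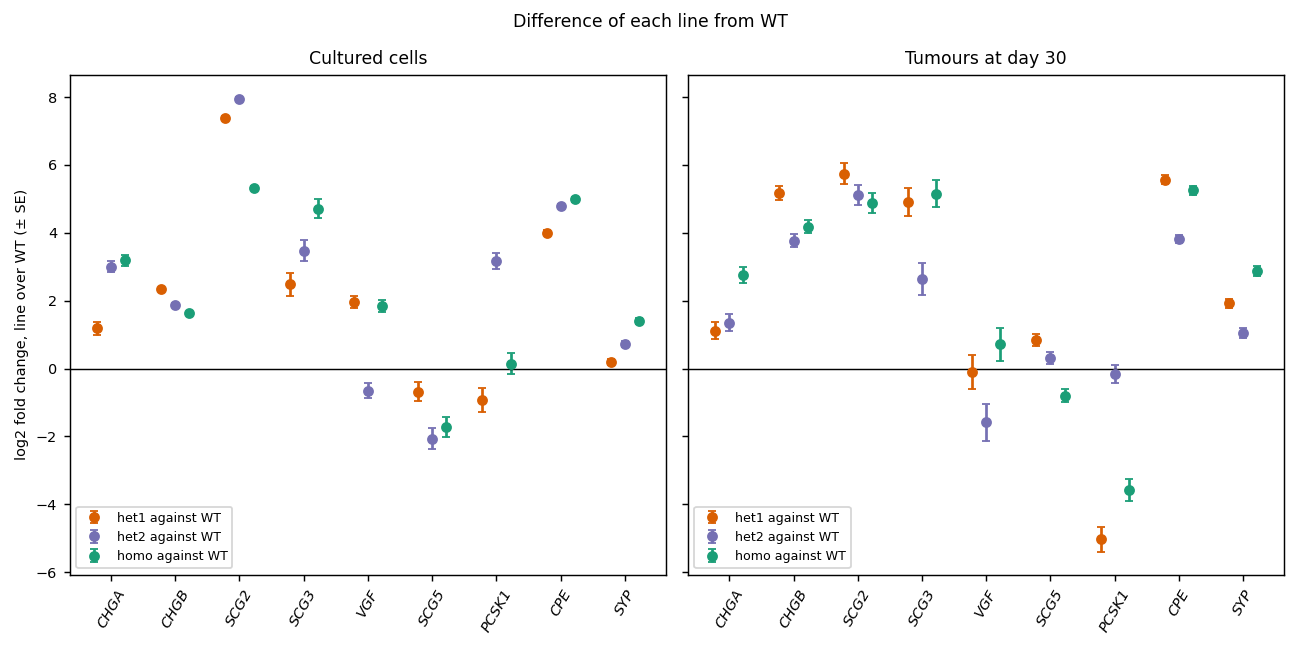
Log2 fold change of each line over WT (± SE, edgeR) for the 9 genes in the fit, in cultured cells (left) and day 30 tumours (right). SCG2 and CPE lie above 3 in all 6 comparisons, and PCSK1 lies at -5.03 in het1 and -3.58 in homo tumours but near 0 in het2 tumours.

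Setting tumours beside cells of the same line separated CHGB and CPE from SCG2. CHGB was 65.6, 34.2 and 53.5 times its level in cells in het1, het2 and homo tumours, and 9.15 times in WT tumours. CPE was 50.6, 8.78 and 20.7 times its level in cells in het1, het2 and homo tumours, and 17.2 times in WT tumours. SCG2 was instead lower in the tumours of each truncated line, at 0.255, 0.111 and 0.591 times the level in cells in het1, het2 and homo, and overlapped between WT tumours and WT cells. PCSK1 was 13.2 times higher in WT tumours than in WT cells and overlapped between tumours and cells in the 3 other lines. SYP was lower in tumours than in cells in het2 and WT, at 0.443 and 0.353 times, and overlapped in het1 and homo. These ratios join tables scaled separately, and tumour libraries can hold RNA of host cells. The listed markers of fibroblasts (8 genes) summed to 114 to 295, 107 to 353 and 322 to 495 CPM in het1, het2 and homo tumours at day 30, against 222 to 366 CPM in WT tumours. In culture, where no host tissue is present, they summed to 50.7 to 52.4, 54.5 to 57.7 and 63.8 to 71.5 CPM in het1, het2 and homo cells, against 9.68 to 10.8 CPM in WT cells. Those of endothelium (6 genes) summed to 1.21 to 1.98, 6.36 to 8.52 and 4.93 to 5.38 CPM in het1, het2 and homo tumours, against 2.43 to 3.50 CPM in WT tumours, and to 0.177 to 0.435 CPM over all cultured cells. Those of myeloid cells (8 genes) summed to 13.4 to 16.4, 25.1 to 31.5 and 17.0 to 20.3 CPM in het1, het2 and homo tumours, against 32.5 to 45.9 CPM in WT tumours. In culture they summed to 3.77 to 4.18, 3.81 to 4.10 and 1.37 to 2.28 CPM in het1, het2 and homo cells, against 7.10 to 7.29 CPM in WT cells. Their part in the ratios was not tested.

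The markers of nerve and Schwann cells (7 genes) were higher in every truncated line than in WT, without overlap, and in cells 1 gene carried most of their sum. They summed to 25.1 to 26.3, 91.6 to 96.8 and 99.6 to 101 CPM in het1, het2 and homo cells, against 2.97 to 3.88 CPM in WT cells. NEFL, the light neurofilament chain, made up most of this sum, with means of 23.4, 91.8 and 98.7 CPM in het1, het2 and homo cells and 2.82 CPM in WT cells. At day 30 the list in tumours summed to 24.9 to 28.4, 21.5 to 24.7 and 8.75 to 18.3 CPM in het1, het2 and homo, against 2.62 to 2.94 CPM in WT. The Schwann cell genes S100B and SOX10 stayed at means of at most 0.00323 and 0.245 CPM in any day 30 tumour group.

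**Figure D3:**
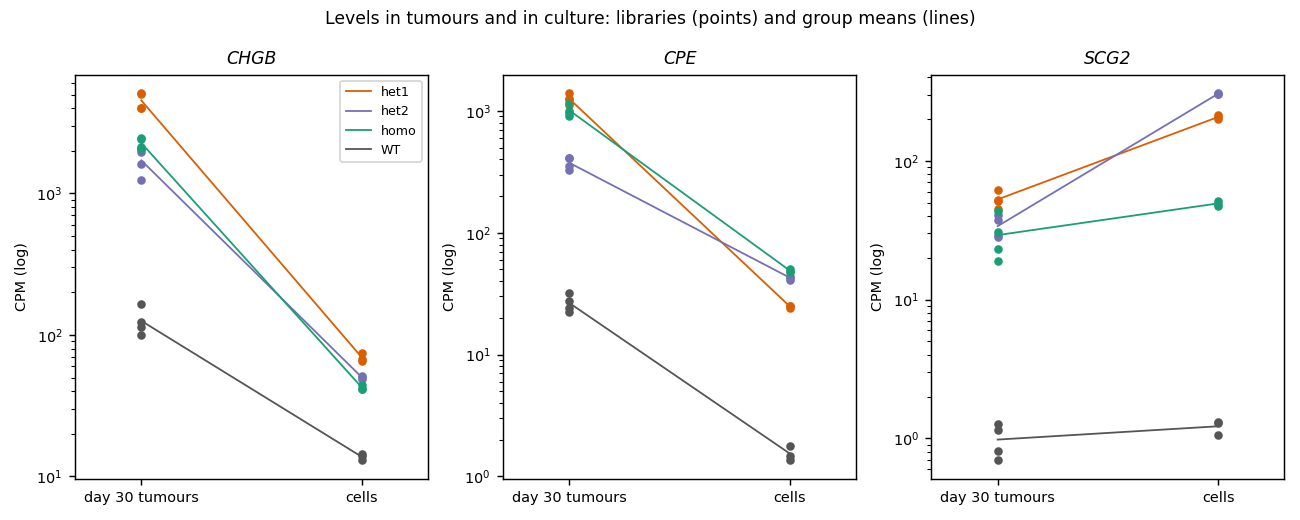
CHGB, CPE and SCG2 in day 30 tumours (left in each panel) and in cultured cells (right), on log axes in CPM; points are libraries and lines join group means of the 4 lines. CHGB and CPE are higher in tumours in every line, and SCG2 is lower in tumours in the 3 truncated lines.

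Per exon length, the RNA of the 10 genes was dominated by 3 of them. In het1 and het2 cells SCG2 made up 65.7% and 73.2% of their summed RPKM (CPM divided by exon length in kilobases), at mean levels of 80.3 and 118 RPKM. In homo cells CPE (31.0%), SCG2 (29.5%) and CHGB (25.7%) were close in share, at 20.1, 19.1 and 16.7 RPKM. In WT cells the leading genes were CHGB with 57.2% and SYP with 15.5%, at only 5.39 and 1.46 RPKM. In every tumour group CHGB led, with 76.7%, 79.7% and 67.2% in het1, het2 and homo at day 30 and 77.8% in WT, and CPE followed with 22.2%, 18.3%, 31.4% and 17.2%. CHGA, the better known chromogranin, was at 0.518, 0.610 and 1.62 RPKM in het1, het2 and homo tumours at day 30 and 0.237 RPKM in WT tumours, where CHGB was at 1783, 672, 892 and 49.3 RPKM.

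**Figure D4:**
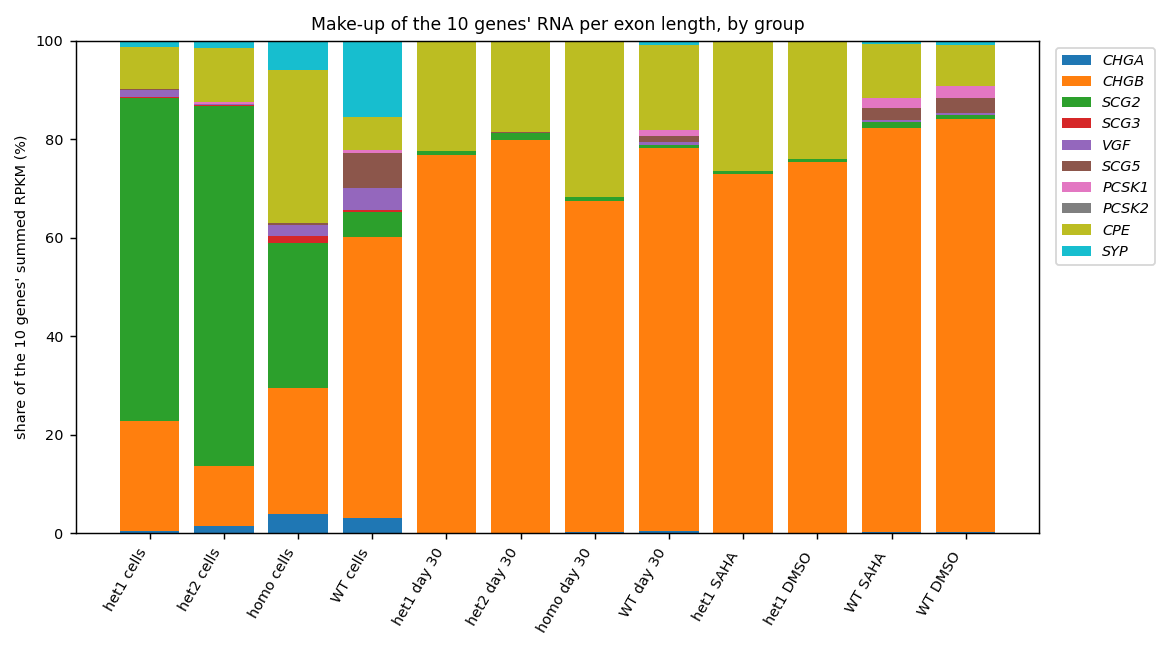
Share of each gene in the summed RPKM of the 10 genes (%), by group, from group means. SCG2 leads in het1 and het2 cells with 65.7% and 73.2%, and CHGB leads in all 8 tumour groups.

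Over the 12 groups, CHGB and CPE followed each other most closely, with a Pearson r of 0.95 on log2(CPM + 1) group means, and SCG3 followed SYP with an r of 0.90. CHGA and CHGB showed no common order, with an r of -0.07, whereas CHGA and SYP had an r of 0.83. PCSK1 ran against SYP with an r of -0.77. The 12 points share lines, tables and scaling, and are a description only. Among 13125 genes with a mean of at least 5 CPM in some group, the most alike were PIGT, PLBD1 and RCN3 for CHGB (r of 0.99, 0.99 and 0.98), BCAM, EMID1 and FOXP2 for CPE (0.99, 0.98 and 0.98) and PQLC2L, ANK2 and SPRY4 for SCG2 (0.97, 0.96 and 0.96). The same rule gave ADAMTS3, SRGN and GAS6 for CHGA, BAIAP2, TMEM145 and LRRC28 for SYP (r from 0.95 to 0.97 for these 6), and MECOM, BMP2 and NPBWR1 for PCSK1 (0.97, 0.97 and 0.96).

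The het1 and WT tumours were also apart in the treated groups. CHGB was at 4754, 5468, 5365 and 5491 CPM in het1 tumours under SAHA and at 121, 244, 77.8 and 74.4 CPM in WT tumours under SAHA. Under DMSO it was at 4090, 4401, 5872 and 3546 CPM in het1 tumours, against 50.9, 117, 144 and 140 CPM in WT tumours. The SAHA and DMSO libraries of each line overlapped, and het1 lay above WT under either agent. Of the 9 genes, 6 were called higher and 1 lower in het1 than in WT under DMSO, beside 54.0% of all genes (27.3% higher and 26.8% lower), and likewise under SAHA, beside 58.9% (29.9% higher and 29.0% lower). PCSK1 was the lower one in both, at -5.07 ± 0.42 and -3.74 ± 0.37 log2 units.

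CPE was at 1692, 1690, 1900 and 1953 CPM in het1 tumours under SAHA, against 1372, 1227, 1539 and 1248 CPM in het1 tumours under DMSO. These libraries did not overlap, but the difference of 0.43 ± 0.27 log2 units was not called. It was called in a fit to the compared groups alone, an alternative given in the closing section. SYP was at 8.43, 6.93, 7.88 and 7.22 CPM in het1 tumours under SAHA, against 4.96, 5.86, 5.60 and 5.04 CPM under DMSO, a difference of 0.50 ± 0.16 log2 units. It was the 1 gene of the 9 called between SAHA and DMSO in het1, where 16.8% of all genes were called (7.68% higher and 9.15% lower), and it was no longer called with 7 of the alternatives given in the closing section. VGF was at 1.17, 1.35, 1.52 and 1.17 CPM in het1 tumours under SAHA, against 0.627, 0.684, 0.741 and 1.00 CPM under DMSO, without overlap and without a call. Of those alternatives, DESeq2, the replicate block and a fit to the compared groups alone called the VGF difference. In WT tumours 0 of the 9 genes and 0 of all 22586 genes tested were called between SAHA and DMSO by edgeR, a background of 0%. At an unadjusted p under 0.05 there were 1 of the 9 and 1911 of all genes, and DESeq2 called 0 of the 9 and 150 of all genes. The library of WT under SAHA with replicate number 4 stood apart in several of the genes, with 0.515 CPM of CHGA, 3.05 CPM of SCG2 and 0.682 CPM of SCG5, where the other 3 had 0.185 to 0.222, 1.17 to 1.27 and 2.18 to 2.37 CPM.

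Other genes of the pathway were taken from 5 lists with 105 genes, and were tested with edgeR's quasi-likelihood test with adjustment over all tested genes. These lists too were chosen with earlier results of these data known. Of the 67 listed genes tested in cells, 53, 55 and 58 changed in het1, het2 and homo, with 36, 37 and 35 higher and 17, 18 and 23 lower than in WT. Of the 68 tested in day 30 tumours, 51, 51 and 52 changed, with 35, 33 and 34 higher and 16, 18 and 18 lower. These are 79.1%, 82.1% and 86.6% of the listed genes in cells and 75%, 75% and 76.5% in tumours, beside the shares of all genes given above. The listed genes that passed the filter ranged widely in level, from a mean of 0.038 CPM (PROX1) to 655 CPM (CTSL) over het1 and WT cells. The shares were not tested against each other.

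Of the 12 processing enzymes and chaperones tested, 9, 9 and 8 rose in het1, het2 and homo cells and 3, 2 and 3 fell. PAM, the amidating enzyme, rose in all 6 comparisons of a line with WT, to means of 65.8, 145 and 140.3 CPM in het1, het2 and homo cells, against 31.4 CPM in WT cells (differences of 1.07 ± 0.03, 2.21 ± 0.03 and 2.16 ± 0.03 log2 units, edgeR adjusted p = 1.5e-23, 1.8e-32 and 2.1e-32). In tumours it rose by 1.67 ± 0.07, 1.42 ± 0.07 and 2.01 ± 0.07 log2 units in het1, het2 and homo (edgeR adjusted p = 5.8e-14, 1.1e-12 and 3.1e-15), and no library of a line overlapped WT. PCSK1N, which encodes an inhibitor of PC1/3, rose to 6.80, 11.2 and 14.1 CPM in het1, het2 and homo cells, against 3.16 CPM in WT cells. It also rose in het1 and homo tumours, by 1.00 ± 0.12 and 1.08 ± 0.12 log2 units, and was not called in het2 tumours.

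The convertases of the constitutive pathway did not move together. FURIN rose by 0.87 ± 0.03, 0.82 ± 0.03 and 1.15 ± 0.03 log2 units in het1, het2 and homo cells, and in tumours it rose in het2 (1.75 ± 0.07) and homo (0.94 ± 0.07) and was not called in het1 (-0.11 ± 0.07). MBTPS1, the site-1 protease of the Golgi, rose in all 6 comparisons, by 0.39 to 0.90 log2 units. PCSK6 rose in tumours to 34.5, 72.3 and 160 CPM in het1, het2 and homo, against 29.4 CPM in WT. PCSK5 fell in the tumours of every line, to 16.8, 46.7 and 24.6 CPM in het1, het2 and homo, against 120 CPM in WT.

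Of the granule and synaptic vesicle genes, 18 were tested in cells and 17 in day 30 tumours. In cells 9, 8 and 8 rose and 4, 7 and 8 fell in het1, het2 and homo, and in tumours 6, 6 and 5 rose and 6, 8 and 6 fell. CADPS2, a priming factor for dense-core granules, rose in all 6 comparisons, to 4.30, 1.71 and 28.8 CPM in het1, het2 and homo cells, against 0.400 CPM in WT cells, and to 10.5, 16.8 and 37.8 CPM in their tumours, against 5.28 CPM in WT tumours. SNAP25, a component of the fusion machinery at the plasma membrane, fell in cells by 1.95, 1.03 and 3.30 log2 units in het1, het2 and homo, and RAB27B, a GTPase of secretory vesicles, fell by 1.73, 0.81 and 3.50 log2 units. In tumours SNAP25 fell in het2 and homo and was not called in het1, and RAB27B fell in het1 and homo and was not called in het2. STX1A, the syntaxin partner of SNAP25, rose in het1 tumours by 1.45 ± 0.13 log2 units and fell in het2 and homo tumours by 0.65 and 0.75. In cells it fell in het2 and homo and was not called in het1. PTPRN2, a granule membrane protein, rose in the cells of every line and in het1 tumours, and fell in het2 tumours to 1.11 CPM, against 13.2 CPM in WT tumours. PTPRN, its close relative, was at 1.20, 0.103 and 4.08 CPM in het1, het2 and homo cells, against 0.0169 CPM in WT cells, and rose in all 3. That WT mean lies below the floor of 3 counts. In tumours PTPRN was at 0.592, 0.127 and 0.792 CPM in het1, het2 and homo, against 1.11 CPM in WT, and fell in het1 and het2 but was not called in homo.

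Of the prohormone precursors, 18 of the 39 listed were tested in cells and 19 in day 30 tumours. In cells 11, 9 and 8 rose and 4, 5 and 6 fell in het1, het2 and homo; in tumours 14, 12 and 11 rose and 1, 1 and 3 fell. NTS, the neurotensin precursor, had the highest level among the named ones. It reached 1008 ± 40, 233 ± 2 and 1520 ± 57 CPM in het1, het2 and homo cells, against 54.2 ± 3.1 CPM in WT cells, and 3483 ± 569, 1386 ± 228 and 3837 ± 739 CPM in their tumours, against 230 ± 60 CPM in WT tumours. No library of a line overlapped WT (edgeR adjusted p from 1.8e-34 to 1.7e-07). NUCB2, the nesfatin precursor, rose in all 6 comparisons by 0.66 to 1.07 log2 units. EDN1, the endothelin-1 precursor, fell in culture to 30.0, 7.96 and 0.944 CPM in het1, het2 and homo, against 86.3 CPM in WT, but rose in tumours to 149, 115 and 109 CPM, against 90.9 CPM in WT, with overlap in het2 and homo. CALCB, which encodes a calcitonin gene-related peptide, reached 5.87 CPM in het2 cells and at most 0.409 CPM in the other lines. CCK, the cholecystokinin precursor, reached 3.78 CPM in homo tumours, against 0.0206 CPM in WT tumours, a mean below the floor of 3 counts.

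Among the transcription regulators, NEUROD1 and INSM1, factors of neuroendocrine differentiation, had means of at most 0.015 and 0.050 CPM in any group. REST, the repressor of neuronal genes that binds RE1, was at 84.4, 86.8 and 93.9 CPM in het1, het2 and homo cells, against 76.4 CPM in WT cells, and rose by 0.14 ± 0.03, 0.18 ± 0.03 and 0.30 ± 0.03 log2 units. In tumours REST rose by 0.12 ± 0.05, 0.17 ± 0.05 and 0.28 ± 0.05 log2 units (edgeR adjusted p = 0.040, 0.0066 and 5.6e-05), and the het1 call was lost under several alternatives. RCOR2, a corepressor partner, rose in all 6 comparisons by 1.44 to 2.95 log2 units.

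CREM, a factor that binds the cyclic AMP response element, rose to 96.0, 67.3 and 127 CPM in het1, het2 and homo cells, against 28.9 CPM in WT cells (1.74 ± 0.04, 1.22 ± 0.04 and 2.14 ± 0.04 log2 units). In tumours it rose by 0.87 ± 0.10, 0.29 ± 0.10 and 0.91 ± 0.10 log2 units. The promoters of the 3 genes that carry the element were shown because the levels of these genes were ordered differently. Their directions are therefore given as values only, and a link to CREM was not tested. CHGA was above WT in the cells and tumours of every line. VGF differed from WT by 1.96, -0.65 and 1.85 log2 units in het1, het2 and homo cells and by -0.09, -1.58 and 0.71 in their tumours. PCSK1 differed by -0.93, 3.17 and 0.14 log2 units in het1, het2 and homo cells, and was lower in het1 and homo tumours, as given above. FOXA2, a factor of foregut endoderm and lung epithelium, fell to 5.36, 2.24 and 0.104 CPM in het1, het2 and homo cells, against 40.6 CPM in WT cells, and to 19.6, 24.8 and 16.1 CPM in their tumours, against 47.2 CPM in WT tumours.

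Of the 14 other neuroendocrine markers, 11 were tested in cells and in day 30 tumours. In cells 3, 6 and 5 rose and 3, 1 and 4 fell in het1, het2 and homo, and in tumours 4, 5 and 5 rose and 1, 3 and 2 fell. The calls make up 54.5%, 63.6% and 81.8% of the list in het1, het2 and homo cells, beside 62.8%, 68.5% and 70.5% of all genes. In tumours they make up 45.5%, 72.7% and 63.6%, beside 51.5%, 49.2% and 54.8%. SSTR2, the somatostatin receptor used as an imaging target in neuroendocrine tumours, was at 36.3 ± 4.8, 45.3 ± 8.3 and 126 ± 25 CPM in het1, het2 and homo tumours, against 5.20 ± 0.88 CPM in WT tumours, and rose by 2.81 ± 0.17, 3.12 ± 0.17 and 4.60 ± 0.18 log2 units without overlap (edgeR adjusted p = 2.2e-09, 1.1e-09 and 1.1e-11). In cells SSTR2 was low, at 0.726, 0.970 and 1.35 CPM in het1, het2 and homo, against 0.620 CPM in WT, and rose in het2 and homo by 0.65 ± 0.24 and 1.12 ± 0.24 log2 units but was not called in het1. DLL3, an inhibitory Notch ligand, rose in tumours to 4.75, 2.71 and 3.28 CPM in het1, het2 and homo, against 0.972 CPM in WT. DDC, which makes dopamine and serotonin from their amino acid precursors, fell in cells to 1.93, 0.0490 and 0.0769 CPM in het1, het2 and homo, against 17.4 CPM in WT cells. In tumours DDC fell to 10.7 and 11.7 CPM in het2 and homo, and was not called in het1 at 24.3 CPM, against 22.0 CPM in WT. ENO2, the neuronal enolase, rose in het1 tumours to 198 CPM, against 65.1 CPM in WT, and was not called in het2 or homo tumours. In cells it rose in het2 and fell in het1 and homo.

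**Figure D5:**
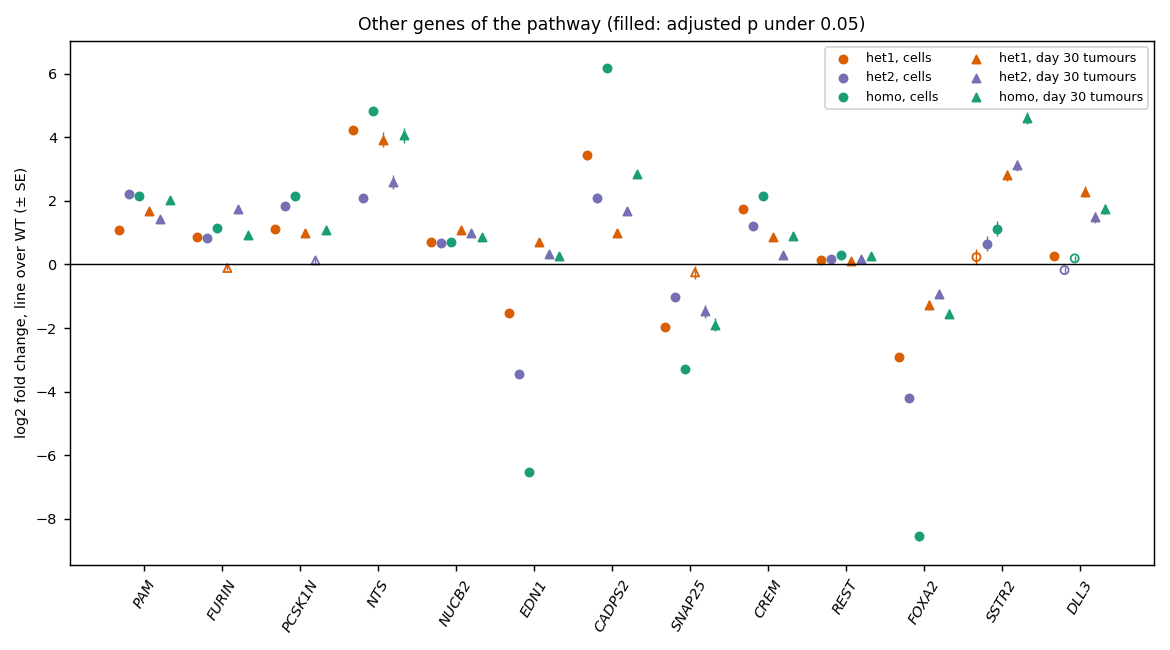
Log2 fold change of each line over WT (± SE, edgeR) for other genes of the pathway, in cells (circles) and day 30 tumours (triangles); filled symbols have an adjusted p under 0.05. PAM, NTS, NUCB2, CADPS2, CREM and REST lie above 0 and FOXA2 lies below 0 in all 6 comparisons, while EDN1 lies below 0 in cells and above 0 in tumours.

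Under SAHA, 12 of the 69 listed genes tested changed in het1 tumours (7 higher, 5 lower, or 17.4% beside 16.8% of all genes). L1CAM, a neural adhesion molecule, rose to 9.19 ± 1.07 CPM in het1 tumours under SAHA, against 4.02 ± 0.86 CPM under DMSO (1.19 ± 0.14 log2 units, edgeR adjusted p = 2.1e-05, higher in 4 of 4 libraries). In WT tumours it was at 21.5 ± 2.7 CPM under SAHA and 19.2 ± 1.9 CPM under DMSO, and the difference between the lines was 1.03 ± 0.18 log2 units (edgeR adjusted p = 0.0046, where 4.72% of all genes were called), a call that was lost under 1 of the alternatives in the closing section. The other listed gene called in that test, SYPL2, averaged under 1 CPM; it falls outside the rule for named genes and is named after its value was seen. PTPRN rose to 1.86 CPM in het1 tumours under SAHA, against 0.568 CPM under DMSO (adjusted p = 0.00016 with edgeR), and stood at 3.39 CPM under SAHA and 1.28 CPM under DMSO in WT tumours, which was not called (edgeR adjusted p = 0.079). CREM rose by 0.31 ± 0.07 log2 units in het1, a call that was lost with the replicate block. In WT tumours edgeR called 0 of the 69 genes, 9 had an unadjusted p under 0.05, and DESeq2 called 3.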

How the data were processed

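Gene-level read counts of 44 polyA RNA libraries were used as deposited by the authors, in 3 tables. Per the labels' protocols, RNA came from an RNeasy Plus Mini extraction (QIAGEN) and was turned into stranded mRNA libraries (KAPA). The tools HTSeq, HISAT2 and bcl2fastq and the build hg38 are listed in the submitters' processing notes. The sources used here do not give their versions, the annotation, the strand setting or any removal of host reads. Groups follow the labels, and 0 columns were left out.

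Of the 58721 identifiers in each table, 58676 were given symbols from GENCODE 29; the other 45, pseudoautosomal copies, were given no symbol but stayed in the counts. Each table was fitted with all its groups in edgeR 4.0.16 (R 4.3.3), with filterByExpr, TMM factors and quasi-likelihood tests in robust form. The fits held 21704, 22533 and 22586 genes in cells, day 30 tumours and treated tumours, and a gene was called where its p-value after Benjamini-Hochberg adjustment was under 0.05. The log2 fold changes carry the model's SE, and RPKM divides CPM by summed exon length. On simulated counts with known changes, 90.3% of changes of 1 log2 unit were recovered in het1 against WT under DMSO (18346 genes), the lowest share among the comparisons simulated. The simulation left out genes with low counts, gave all genes the same dispersion and changed few of them. It does not give the recovery for genes with low counts.

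The 10 genes and the lists were chosen with earlier results of these data known. Named genes of a list are up to 4 called genes with the smallest p and a mean of at least 1 CPM per comparison, plus REST, NEUROD1 and INSM1. Values of some other genes that the rule names are not reported here. Likeness used log2(CPM + 1) means of 12 groups. The alternatives tried were DESeq2 1.42.0, RLE size factors, a filter at 1 CPM or none at all, a fit to the compared groups alone, a block for replicate number, other scalings, and leaving out each library. No identical columns were found (0 of 60 replicate pairs). Depth was 61168373 to 99593214 counts, and floors cover counting error only.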

Additional observations from a re-analysis of the deposited data

Results flagged for a closer look

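The values below stood out among 304 sets of 4 tumour libraries, 1 set per gene and group, in 31 of which the highest or lowest library lay far from the other 3 by Dixon's criterion. In 8 of the 31 the other 3 libraries held 0 counts, so that any count in the fourth stands apart by construction, and no chance rate applies. Chance gives about 1 in 20 sets otherwise. They are listed as values, and no cause was tested.

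Among the granin and processing genes, the library of WT under SAHA with replicate number 4 stood apart with 0.515 CPM of CHGA, 3.05 CPM of SCG2 and 0.682 CPM of SCG5. CHGB was lowest at 4754 CPM (rounded, 4750) in het1 under SAHA replicate 1, where the others had 5365 to 5491 CPM. In WT under DMSO, CPE was 14.5 CPM in replicate 3, PCSK1 was 7.41 CPM in replicate 8 and SYP was 0.995 CPM in replicate 2. PCSK2 was at 0.0107 CPM in day 30 WT replicate 4 and at 0.0244 CPM in WT under DMSO replicate 7, with the other 3 libraries of each group at 0.

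Among the processing enzymes, PAM was lowest in het1 under DMSO replicate 3 (121 CPM) and in het1 under SAHA replicate 2 (127 CPM). MBTPS1 was 234 CPM in het1 under DMSO replicate 4, and PCSK5 was 26.6 CPM in het1 under SAHA replicate 2. At day 30, PCSK1N was 7.93 CPM in het2 replicate 0 and PCSK6 was 77.9 CPM in het2 replicate 1. Among vesicle genes, RAB27B was 120 CPM in het2 replicate 3 at day 30 and 118 CPM in WT under DMSO replicate 7, and PTPRN was 0.939 CPM in day 30 WT replicate 4.

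Among precursors, NTS was lowest at 2269 CPM (rounded, 2270) in het1 under DMSO replicate 3, and EDN1 was 90.3 CPM in WT under DMSO replicate 3. CALCB was 0.364 CPM in het2 replicate 0 and CCK 0.4 CPM in het1 replicate 3 at day 30. CCK was 0.0696 CPM in WT under SAHA replicate 4. Among the regulators, single libraries held the only counts of their group, with 0.0132 CPM of NEUROD1 and of INSM1 in het1 under DMSO, 0.0244 CPM of NEUROD1 in WT under DMSO, 0.0621 CPM of INSM1 in WT at day 30, 0.0127 CPM of INSM1 in het2 at day 30 and 0.0138 CPM of INSM1 in WT under SAHA. SSTR2 was 1.19 CPM in WT under DMSO replicate 2, and ENO2 was 78.1 CPM in homo replicate 1 at day 30.

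The change of L1CAM with SAHA differed between het1 and WT by 1.03 log2 units in the test of that difference. For other genes every library moved opposite ways in day 30 tumours and in cells of a line against WT, and this difference was not tested. In het1, SCG5 was 0.84 log2 units above WT in day 30 tumours and 0.69 below in cells (-0.69). In the treated het1 tumours SCG5 differed from WT by -0.005 log2 units under DMSO and -0.10 under SAHA, with overlap in both. EDN1 was 0.72 above WT in day 30 het1 tumours and ENO2 1.60 above, where both were lower in cells. PTPRN was at -0.91 in day 30 het1 tumours and higher in cells. In het2, PTPRN was at -3.10, PTPRN2 at -3.59 and L1CAM at -0.86 in tumours, where all 3 were higher in cells. DLL3 was at 1.48 in het2 tumours and at -0.18 in het2 cells, where it was not called (edgeR adjusted p = 0.071).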

How the results depend on the processing

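The count of listed pathway genes called stayed within 1.5 times its value for each comparison of a line with WT, treated groups included, under every alternative, and no difference described for any gene changed sign where it was called. Leaving out each library gave 50 to 54, 53 to 57 and 58 to 60 calls in het1, het2 and homo cells, 46 to 50, 48 to 51 and 50 to 54 in day 30 tumours, and 47 to 50 and 48 to 55 in het1 against WT under DMSO and under SAHA. The SAHA comparisons moved more. In het1 the 12 calls became 2 with the replicate block, 25 with only the groups compared and 7 to 12 without each library (7 without DMSO replicate 5). In WT the 0 calls became 1 without a filter, 3 with DESeq2 and 0 to 1 without each library. The 2 calls of the difference between lines became 1 at a mean of at least 1 CPM, 0 with the replicate block (L1CAM was then 0.98 log2 units, edgeR adjusted p = 0.24) and 1 to 8 without each library (8 without WT under SAHA replicate 6); only the groups compared could not be run there, since it uses all 4. The cause was not tested. Same-numbered libraries showed no common deviation over all genes (correlations from -0.26 to 0.24). With so few libraries per group, this cannot exclude a shared animal or batch for some of them. What the numbers stand for is not given.

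Group means of the 10 genes under other scalings were 0.921 to 1.06 times those given. The SYP call under SAHA in het1 was lost with the replicate block and without any 1 of 6 libraries, and the REST call in het1 tumours was lost with RLE size factors, with no filter, with the replicate block, with DESeq2 and without any 1 of 6 libraries. Without WT replicate 2, the het1 differences in cells were -0.48 for SCG5 and -0.49 log2 units for PCSK1, neither called, and each of these calls was also lost without either of 2 het1 libraries. The SCG5 call was also lost with DESeq2 and with no filter, and the PCSK1 call with only the groups compared. The VGF call in het2 was lost without 1 library in cells and without any 1 of 3 in tumours. In tumours it was also lost with no filter and with the replicate block. Leaving out WT under SAHA replicate 4 brought calls of SCG5 (-0.38) and VGF (0.96) in het1 against WT under SAHA. The replicate block also brought that VGF call. The CPE and VGF calls gained between SAHA and DMSO in het1 are given above. Depth limits low values such as those of PCSK2, SCG3 in WT, NEUROD1 and INSM1, which lie near the floor of 3 counts. It also limits PTPRN in WT cells, CCK in WT tumours and PCSK1 in het1 tumours at day 30.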
